A study of Mus musculus with 8 samples.

Results

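The long noncoding RNAs described here are 10 transcripts known from neurons: Malat1, Meg3, Rian, Mirg, Miat, Neat1, Snhg11, Snhg14, Pantr1 and Rmst. They were taken from the table of array values by gene symbol, using probe sets annotated with that symbol alone and, for each gene, the one with the highest mean over the 8 arrays. By this rule 9 of the 10 were measured, out of 22180 genes named in the same way, and all 9 were among the 11712 genes bright enough to be tested. Mirg had no probe set of its own.

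Long noncoding RNAs are transcripts that do not code for a known protein, and many of them stay in the nucleus, whereas ribosomes that make protein are in the cytoplasm. Malat1 resides in nuclear speckles beside splicing factors, Neat1 is the scaffold of the nuclear bodies called paraspeckles, and Miat forms a nuclear domain of its own in neurons. Meg3, Rian and Mirg are expressed from the maternal chromosome in the imprinted Dlk1-Dio3 domain. Snhg14 is expressed from the paternal chromosome in the Snrpn-Ube3a domain and runs antisense to Ube3a. Rian, Snhg11 and Snhg14 carry small nucleolar RNAs in their introns. Pantr1 lies beside Pou3f3, a transcription factor gene of upper-layer cortical neurons, and Rmst is a neuronal RNA whose product binds the transcription factor SOX2.

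The tissue was mPFC (medial prefrontal cortex) of TRAP mice, in which Cre recombinase switches on a ribosomal tag with green fluorescent protein (GFP). CAV2-Cre, a canine adenovirus that enters axon terminals and delivers Cre, was injected in VTA or in NAC, so that the tag marked mPFC cells projecting there. The 4 groups held 2 arrays each: RNA bound to tagged ribosomes pulled down with GFP-trap after VTA injection (VTA pull-down), the same after NAC injection (NAC pull-down), and unpurified RNA of each (VTA input and NAC input). All 4 groups thus carried the tag and received the virus. None of strain, age, sex, the line that carries the tag or any pooling of animals is given in the sources used here. The labels do not tie the arrays of a group to different mice, so a p-value speaks of the spread among these arrays, which may be technical. Values are on the log2 scale, where a difference of 1 is a doubling, and they carry no read depth, so the number of arrays limits the precision. A result passed when its limma p-value, adjusted by the Benjamini-Hochberg method over all 11712 genes, was under 0.05.

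Several marker lists of other cell types held genes that fell in the pull-downs, yet all 9 oligodendrocyte markers stayed above the median of the named genes on every array. All 9 measured markers of glutamatergic cortical neurons and all 12 general neuronal markers lay above that median on every array too. In the average of both targets, pull-down minus input, 3 of the 9 glutamatergic markers rose and 3 fell, among them Fezf2 at 0.24 and Slc17a6 at -0.44. Of the 12 neuronal markers 2 rose, Gap43 at 0.33 and Nefm at 0.30. Of the 9 oligodendrocyte markers 8 fell, and their summed linear signal was 5764 to 5865 in VTA pull-downs and 5985 to 6363 in NAC pull-downs, against 8606 to 8659 in VTA inputs and 9559 to 9753 in NAC inputs. Of the 9 microglial markers 8 fell, with sums of 1956 to 2055 in VTA pull-downs and 2617 to 2817 in NAC pull-downs, against 2681 to 2834 in VTA inputs and 4002 to 4070 in NAC inputs. Of 9 astrocyte markers 6 fell, of 10 interneuron markers 7, of 8 oligodendrocyte precursor markers 5 and of 7 endothelial markers 4. Among the endothelial genes 1, Egfl7, rose. In this averaged comparison 32% of all tested genes passed as lower and 9.6% as higher. The interneuron sum was 6813 to 6831 in VTA pull-downs, against 6833 to 6975 in VTA inputs. It was 6198 to 6289 in NAC pull-downs, against 7402 to 7418 in NAC inputs. Of the 10 markers 4 fell in VTA samples, beside 25.9% of all tested genes, and 5 in NAC samples, beside 8.01%. Astrocyte sums were 6647 to 7083 in VTA pull-downs and 6489 to 6882 in NAC pull-downs, against 8542 to 8905 in VTA inputs and 8949 to 9251 in NAC inputs. No marker was at 0 on this scale; Gjb6 of astrocytes and Tek and Ly6c1 of endothelial cells lay under the median on all 8 arrays. Pull-down minus input compares RNA on tagged ribosomes with RNA of the whole tissue, so it does not count cells. Between the bulk inputs, fewer cells of a type and less RNA per cell cannot be told apart.

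With the deposited values and both targets averaged, ribosome-bound RNA held less of most of these noncoding RNAs than unpurified tissue RNA did. Within targets, 3 of the 9 fell in VTA samples, beside 25.9% of all tested genes. In NAC samples 5 fell, beside 8.01%. Averaged over both targets, 6 of the 9 fell in the pull-downs (Snhg14, Rmst, Rian, Neat1, Miat and Snhg11), 1 rose (Pantr1), and Malat1 and Meg3 did not pass. The fall was 1.51-fold for Snhg14, 1.47-fold for Rmst and 1.44-fold for Rian, and the rise of Pantr1 was 1.33-fold. The median difference of the 9 was -0.32, beside -0.11 over all 11712 genes. Falls were common among all genes: 32% of the tested genes passed as lower in this comparison, 9.6% as higher and 41.5% in either direction.

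The scale of the arrays bears on these counts. Over all genes the median difference, -0.11 as deposited, became 0.03 with arrays centred over the tested genes, -0.16 with arrays centred over all probe sets, and -0.05 after quantile normalization. Of all genes that passed, 23.1% were higher with the deposited values, 58.8% with centring over the tested genes and 37.9% after quantile normalization. With centring over the tested genes, a setting chosen after seeing the data, Snhg14, Rmst and Rian were lower and Pantr1 higher as before, whereas Neat1 (-0.18, limma adjusted p = 0.141), Miat (-0.18, adjusted p = 0.0678) and Snhg11 (-0.15, adjusted p = 0.104) no longer passed. With no filter on low values, when 22180 genes were tested, none of the 9 passed in NAC samples or between the targets, and in the averaged comparison Neat1 was lost (adjusted p = 0.0714).

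**Figure D1:**
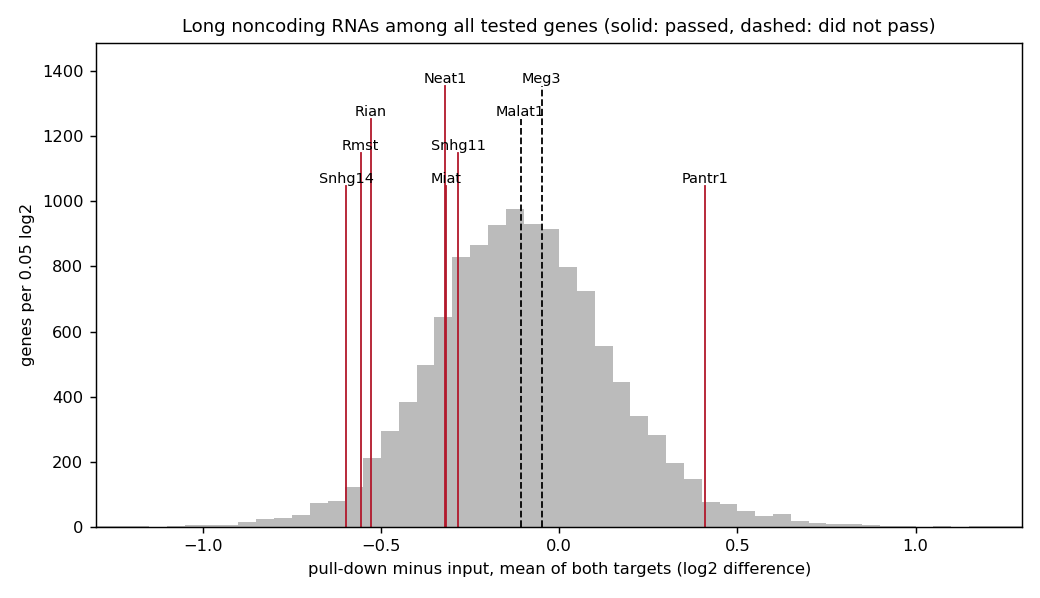
Histogram of the pull-down minus input difference, averaged over both targets, on the log2 scale (horizontal) against the number of genes per bin (vertical) for the tested genes; 17 genes beyond the drawn range are not shown. Vertical lines mark the 9 long noncoding RNAs, solid where they passed the test and dashed where they did not: Snhg14, Rmst and Rian lie on the lower flank and Pantr1 on the upper one, while Malat1 and Meg3 lie near the median of -0.11.

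Among the RNAs of the imprinted Dlk1-Dio3 domain, Rian fell in the pull-downs of both targets. In the mouse assembly GRCm38.p6 the RefSeq annotation places Meg3 at chr12:109540996-109571729, Rian at chr12:109603945-109661716 and Mirg at chr12:109734981-109749458, each as a long noncoding RNA gene. The annotation used here gives no position for the probe sets within these genes. Promoter windows of Meg3 and Rian, with that of Snhg14 for the other imprinted domain, are printed because Rian and Snhg14 fell in both targets and Meg3 shares its domain with Rian. Each runs 5′ to 3′ from 250 bases before an annotated start to 50 after it (RefSeq, GRCm38.p6), and capitals mark matches on either strand to the cyclic AMP response element TGACGTCA or its part TGACG, to TATAAA and to the Sp1 motif GGGCGG.
Meg3, chr12:109540746-109541045, plus strand: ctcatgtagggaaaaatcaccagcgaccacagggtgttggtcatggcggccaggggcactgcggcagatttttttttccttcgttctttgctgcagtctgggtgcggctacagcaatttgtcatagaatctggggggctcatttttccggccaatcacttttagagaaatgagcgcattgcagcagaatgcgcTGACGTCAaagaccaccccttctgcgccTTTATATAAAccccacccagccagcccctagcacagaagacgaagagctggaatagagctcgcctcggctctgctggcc
Rian, chr12:109603695-109603994, plus strand: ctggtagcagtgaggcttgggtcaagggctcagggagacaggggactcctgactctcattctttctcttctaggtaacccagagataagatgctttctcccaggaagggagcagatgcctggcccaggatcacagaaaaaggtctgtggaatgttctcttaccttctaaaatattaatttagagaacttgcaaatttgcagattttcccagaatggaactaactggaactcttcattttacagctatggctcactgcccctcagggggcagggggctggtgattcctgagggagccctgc
Snhg14, chr7:60450128-60450427, minus strand: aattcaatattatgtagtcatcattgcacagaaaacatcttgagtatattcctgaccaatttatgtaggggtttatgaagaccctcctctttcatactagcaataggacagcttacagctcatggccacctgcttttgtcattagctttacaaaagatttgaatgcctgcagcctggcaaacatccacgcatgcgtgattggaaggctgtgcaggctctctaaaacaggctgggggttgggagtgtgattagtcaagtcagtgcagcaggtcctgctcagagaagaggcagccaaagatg
RefSeq gives Meg3 a second start, whose window at chr12:109545148-109545447 held none of these motifs and 1 CpG. The printed Meg3 window held 1 match to TGACGTCA, a motif found in 1.79% of the 32851 promoter windows in the table, with both of its TGACG matches inside it. It also held 2 overlapping matches to TATAAA, 1 on each strand, a motif present in 13.6% of the windows. In the windows of Rian and Snhg14 none of these motifs was found; TGACG is present in 20.8% and GGGCGG in 35.7% of all windows. The number of CpG dinucleotides was 13 for the printed Meg3 window, 0 for Rian and 2 for Snhg14, beside a median of 7 over all windows. A match is a description of these letters only.

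Rian had 8.15 and 8.21 in VTA pull-downs and 8.06 and 7.98 in NAC pull-downs, against 8.75 and 8.51 in VTA inputs and 8.70 and 8.56 in NAC inputs (log2 signal). All 4 pull-downs lay below all 4 inputs, a pattern without overlap that 32.7% of all tested genes showed in one direction or the other. The average difference was -0.53 (SE 0.08, n = 4 and 4, limma adjusted p = 0.0011), and 4.14% of all tested genes had a lower value. A second probe set, annotated with Rian together with the small nucleolar RNA DQ267100, had 6.23 and 6.53 in VTA pull-downs and 6.34 and 5.75 in NAC pull-downs, against 7.57 and 7.45 in VTA inputs and 7.45 and 7.25 in NAC inputs. It was lower by 1.22 on the log2 scale (SE 0.14, limma adjusted p = 0.0022 over 16892 probe sets, of which 34.3% passed), but its signal cannot be assigned to Rian alone.

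Meg3 was measured by a single-symbol probe set near the middle of the arrays' range, and it did not pass in any of the 6 comparisons. Its values were 6.49 and 6.13 in VTA pull-downs and 6.44 and 6.23 in NAC pull-downs, against 6.26 and 6.33 in VTA inputs and 6.35 and 6.54 in NAC inputs. The groups overlapped, and the average difference was -0.05, with a 95% interval of -0.26 to 0.16. Brighter probe sets that name Meg3 together with microRNA genes behaved otherwise. That of Meg3, Mir1906-1 and Mir1906-2 had 8.48 and 8.54 in VTA pull-downs and 8.64 and 8.25 in NAC pull-downs, against 9.06 and 9.36 in VTA inputs and 9.42 and 9.31 in NAC inputs. It was lower by 0.81 (SE 0.11, limma adjusted p = 0.0032 over the probe sets), without overlap between pull-downs and inputs. That of Meg3 and Mir770 was lower by 0.34 (SE 0.06, limma adjusted p = 0.0069), and its pull-downs also lay below all inputs. Probe sets with several symbols name no gene by themselves, so the single-symbol value stands for Meg3 here beside these differing ones. Of the 3 probe sets that name Mirg together with microRNAs, 2 lay under the array medians on all 8 arrays, and that of Mir134 and Mirg (0.19, SE 0.11, limma adjusted p = 0.21) did not pass.

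**Figure D2:**
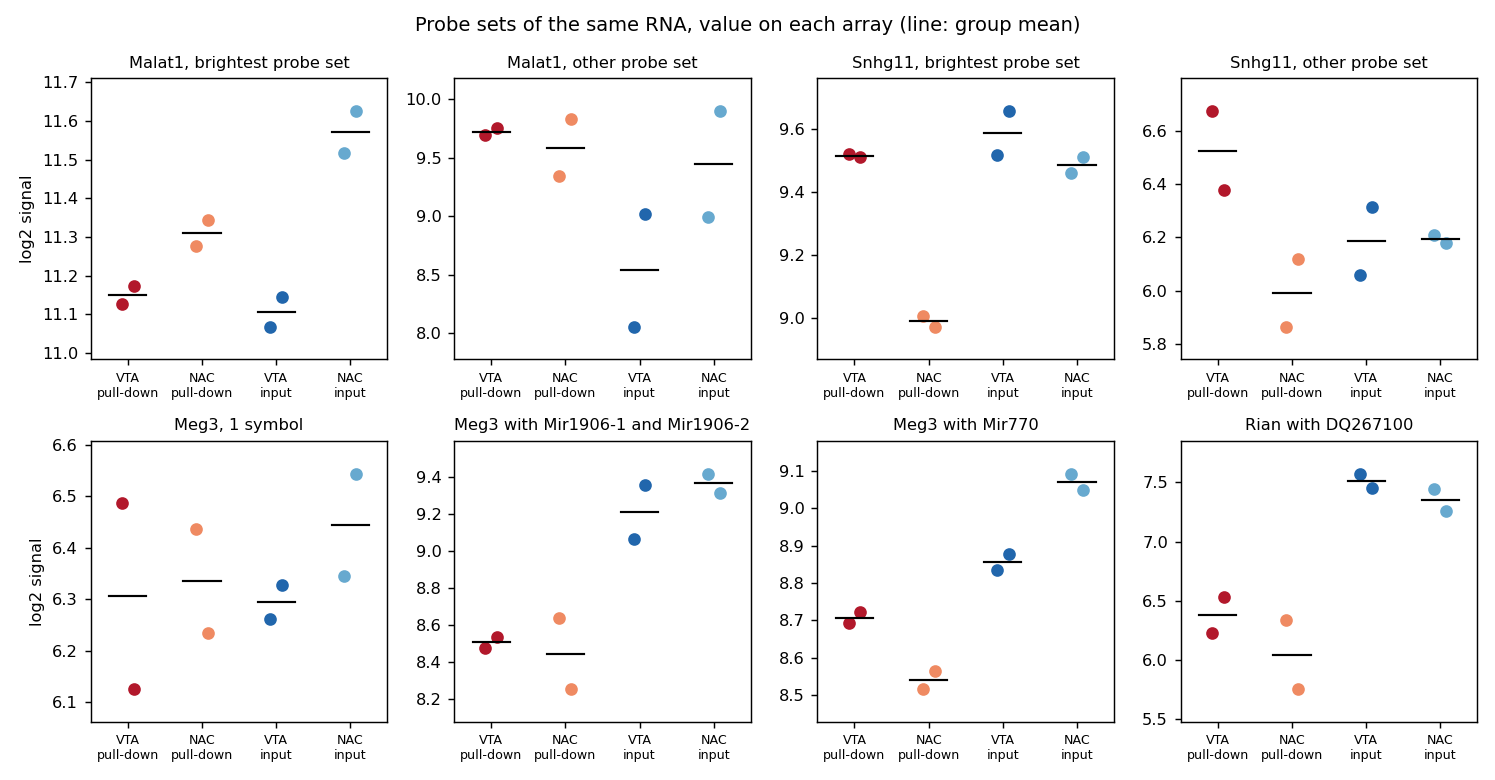
Log2 signal (vertical) on each array for probe sets that name Malat1, Snhg11, Meg3 or Rian, in VTA pull-downs, NAC pull-downs, VTA inputs and NAC inputs; points are arrays (2 per group) and lines are group means, and the vertical scales differ. The single-symbol Meg3 probe set overlaps between groups, while those that share Meg3 or Rian with small RNA genes are lower in all 4 pull-downs than in all 4 inputs.

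Small RNA genes of the domain split in direction when both targets were averaged. Of 61 listed microRNA genes 43 had a single-symbol probe set, and 10 of these were bright enough to be tested. In the averaged comparison 2 fell, Mir493 at -1.04 (SE 0.18) and Mir1188 at -0.63 (SE 0.10), whose pull-down values all lay under the array medians, and 2 rose, Mir758 at 0.40 (SE 0.12) and Mir665 at 0.22 (SE 0.08). Their limma adjusted p-values were 0.0022, 0.0017, 0.026 and 0.042. Of all tested genes 32% passed as lower and 9.6% as higher. In VTA samples 1 of the 10 rose, Mir665 at 0.46, and 2 fell, beside 5.44% of all tested genes higher and 25.9% lower. In NAC samples 0 rose and 3 fell, beside 4.34% higher and 8.01% lower, and Mir665 had -0.03. Mir1188 entered the test only through its inputs, so the filter itself favoured a fall. The arrays were not shown to separate a mature microRNA from its precursor or host transcript. RefSeq places Mir1188 inside Rian, and the other 3 outside Meg3, Rian and Mirg. The mature sequences of the 4 genes that passed are printed with the seed, bases 2 to 8, in capitals, and no seed was shared among them.
mmu-miR-1188-3p, chr12:109611877-109611901, plus strand: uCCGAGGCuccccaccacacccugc
mmu-miR-1188-5p, chr12:109611841-109611861, plus strand: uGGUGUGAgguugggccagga
mmu-miR-493-3p, chr12:109580283-109580305, plus strand: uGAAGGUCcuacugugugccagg
mmu-miR-493-5p, chr12:109580243-109580261, plus strand: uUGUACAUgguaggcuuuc
mmu-miR-665-3p, chr12:109586368-109586387, plus strand: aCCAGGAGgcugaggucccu
mmu-miR-665-5p, chr12:109586331-109586356, plus strand: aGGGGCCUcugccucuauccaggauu
mmu-miR-758-3p, chr12:109712858-109712876, plus strand: uUUGUGACcugguccacua
mmu-miR-758-5p, chr12:109712823-109712843, plus strand: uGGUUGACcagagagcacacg

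Genes listed as neighbours of these RNAs went both ways. Of 8 listed neighbours 7 had a probe set and 5 were tested, of which 1 rose, Begain at 0.32, a gene of a postsynaptic protein, 1 fell, Wars at -0.33, a tryptophan tRNA synthetase gene, and 3 did not pass. The growth regulator gene Dlk1 had 0.12 and did not pass (limma adjusted p = 0.25). The median of the 5 was 0.13, beside -0.11 over all tested genes, of which 32% passed as lower and 9.6% as higher.

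Snhg14, at chr7:59272737-60450177, had the largest fall of the 9 in the averaged comparison, also under each of the 3 other scalings. It had 8.25 and 8.61 in VTA pull-downs and 8.38 and 8.14 in NAC pull-downs, against 8.92 and 8.88 in VTA inputs and 8.98 and 8.98 in NAC inputs. No pull-down reached the lowest input. The difference was -0.60 (SE 0.09, limma adjusted p = 0.0013), and 2.56% of the tested genes had a lower value. Among 7 other tested genes of its domain 2 rose and 3 fell, beside 9.6% of all tested genes higher and 32% lower. Peg12 at 0.61 and Ndn at 0.27, both paternally expressed genes, were higher; Gabrg3 at -0.32, a GABA receptor subunit gene, Ipw at -0.26, another noncoding RNA of the domain, and Atp10a at -0.18 were lower. Ube3a, the ubiquitin ligase gene opposite Snhg14, had -0.08 (limma adjusted p = 0.58). With centring over the tested genes 3 of the 7 were higher and none lower. In VTA samples Peg12 alone passed as higher (1.09) and Gabrg3 alone as lower (-0.40), beside 5.44% and 25.9% of all tested genes. None of the 7 passed in NAC samples. Peg12 was also lower in VTA inputs than in NAC inputs (-0.73, limma adjusted p = 0.049), beside 1.38% of all tested genes.

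RefSeq lists 236 small RNA genes within the spans of the 10 RNAs, 207 of them in Snhg14 and 14 in Rian, and 6 of these genes were tested through a single-symbol probe set. This set was drawn by coordinates after the values of the hosts were seen. In the averaged comparison 4 of the 6 fell and none rose, beside 32% of all tested genes lower and 9.6% higher. Gm26504, a small nucleolar RNA gene within Snhg14, had 10.11 and 10.08 in VTA pull-downs and 9.94 and 9.94 in NAC pull-downs, against 11.30 and 11.35 in VTA inputs and 11.26 and 11.38 in NAC inputs. Its difference was -1.31 (SE 0.06, limma adjusted p = 5.4e-06), larger in size than that of Snhg14, although the difference between host and guest was not tested. Within Rian, AF357355 fell by 2.15 on the log2 scale. Its levels lay under the array median in 3 of the 4 pull-downs, so this size is not exact. AF357355 and Mir1188 met the filter of 2 arrays above the median only because their inputs were bright. For these 2 genes the filter itself favoured a fall. Also within Rian, AF357425 fell by 0.38 and Mir1188 by the amount given above, whereas DQ267102 (-0.30, limma adjusted p = 0.068) and Mir341 (-0.11, adjusted p = 0.28) did not pass.

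Snhg11, a snoRNA host gene at chr2:158375713-158386474, was the only one of the 9 that passed between the pull-downs of the 2 targets. It had 9.52 and 9.51 in VTA pull-downs and 9.01 and 8.97 in NAC pull-downs, against 9.52 and 9.66 in VTA inputs and 9.46 and 9.51 in NAC inputs. The NAC pull-downs stood below all 6 other arrays, which lay close together. VTA minus NAC was 0.53 in the pull-downs (SE 0.09, n = 2 and 2, limma adjusted p = 0.014), a 1.44-fold difference, and 0.10 in the inputs (adjusted p = 0.71). Of all tested genes 0.418% passed as higher in VTA pull-downs and 2.05% as lower, 2.47% in all. Of the 4 pull-downs, 3 could each end this call: without the first of VTA it was 0.52 (adjusted p = 0.0542), and with 1 NAC pull-down left out 0.54 (without the first, adjusted p = 0.0709) and 0.51 (without the second, adjusted p = 0.0853). The other Snhg11 probe set differed by the same size, 0.53 (SE 0.15), but did not pass (limma adjusted p = 0.16 over the probe sets). Pull-down minus input was -0.07 for VTA (adjusted p = 0.57) and -0.50 for NAC (adjusted p = 0.012), whereas the other probe set had 0.34 and -0.20 and passed in neither. In the averaged comparison Snhg11 fell by 0.28 (adjusted p = 0.0078), a call that was lost when its probe sets were averaged (-0.11, adjusted p = 0.269), as was that in NAC samples (-0.35, adjusted p = 0.0591).

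Other snoRNA host genes on the arrays went the other way or did not pass. Of 11 tested, 3 rose, Snhg9 at 0.40, Snhg10 at 0.26 and Snhg20 at 0.19, and none passed as lower. Of all tested genes 9.6% passed as higher and 32% as lower. Those hosts that did not pass lay between -0.20 (Snhg4) and 0.20 (Snhg12). The median of the 11 was 0.07, beside -0.11 over all genes. With arrays centred over all probe sets 1 of the 11 was higher, and with centring over the tested genes 5 were. None was lower under either scaling. Within targets only Snhg9 passed, in VTA samples (0.49, limma adjusted p = 0.021).

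The nuclear body RNAs Malat1, Neat1 and Miat differed in how they moved. Malat1, at chr19:5795690-5802672, had 11.13 and 11.17 in VTA pull-downs and 11.28 and 11.35 in NAC pull-downs, against 11.07 and 11.14 in VTA inputs and 11.52 and 11.63 in NAC inputs. Pull-downs and inputs overlapped, and the average difference was -0.11 (95% interval -0.25 to 0.04, limma adjusted p = 0.21), close to the median of all genes. Within targets it was 0.04 in VTA samples (adjusted p = 0.74) and -0.26 in NAC samples (adjusted p = 0.091). Both NAC pull-downs lay below both NAC inputs, but 62.3% of all tested genes showed no overlap there, in one direction or the other. The NAC value passed when the limma variance was fitted with an intensity trend (adjusted p = 0.00852). The inputs, however, were apart: VTA minus NAC was -0.47 (SE 0.09, n = 2 and 2, adjusted p = 0.037), with 1.38% of all genes passing as lower and 1.9% having a lower value. This call was lost when arrays were centred over all probe sets (-0.41, adjusted p = 0.161), without any 1 of the 4 inputs (-0.52 to -0.41, adjusted p = 0.123 to 0.398) and without either NAC pull-down (adjusted p = 0.0525), and also when the probe sets of the gene were averaged (-0.69, adjusted p = 0.208). The other Malat1 probe set had 9.69 and 9.75 in VTA pull-downs and 9.34 and 9.83 in NAC pull-downs, against 8.06 and 9.02 in VTA inputs and 8.99 and 9.90 in NAC inputs. Its average difference was 0.66 (SE 0.27, limma adjusted p = 0.092 over the probe sets), opposite in sign to that of the brighter one, and its inputs were spread widely. Averaging both probe sets gave 0.61 for VTA pull-down minus input (adjusted p = 0.0388), which passed.

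Neat1, at chr19:5824708-5845480, had 6.68 and 6.49 in VTA pull-downs and 6.87 and 6.70 in NAC pull-downs, against 6.68 and 6.83 in VTA inputs and 7.42 and 7.08 in NAC inputs. The NAC inputs were the highest arrays, and the higher VTA pull-down and the lower VTA input were both at 6.68 after rounding. The average fall of 0.32 passed (SE 0.09, limma adjusted p = 0.022), but not without the second VTA pull-down (-0.27, adjusted p = 0.0542), the second NAC pull-down (-0.28, adjusted p = 0.0721), the second VTA input (-0.28, adjusted p = 0.0804) or the first NAC input (-0.23, adjusted p = 0.0879). It was also lost after quantile normalization (-0.25, adjusted p = 0.0558). VTA minus NAC in the inputs was -0.50 and did not pass (adjusted p = 0.16), beside the microglial sums given above, which were lower in VTA inputs than in NAC inputs. In those inputs 4 of the 9 microglial markers were lower with VTA and 1 higher, with C1qa at -0.91. Of all tested genes 1.38% passed as lower there and 0.12% as higher. The part of these cells in the Neat1 value was not tested.

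Miat, at chr5:112213228-112228948, had 6.55 and 6.59 in VTA pull-downs and 6.30 and 6.38 in NAC pull-downs, against 6.59 and 6.75 in VTA inputs and 6.89 and 6.86 in NAC inputs. The NAC pull-downs lay below every other array, and VTA pull-downs overlapped with their inputs. The average fall of 0.32 passed (SE 0.07, limma adjusted p = 0.0057), and in NAC samples the fall was 0.54 (adjusted p = 0.011), against -0.10 in VTA samples (adjusted p = 0.45). The difference between these 2 values, 0.44, did not pass (adjusted p = 0.28). Of 2 genes whose proteins bind Miat, Qk fell by 0.29 (limma adjusted p = 0.0076) and Celf3 had -0.02 (adjusted p = 0.82).

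**Figure D3:**
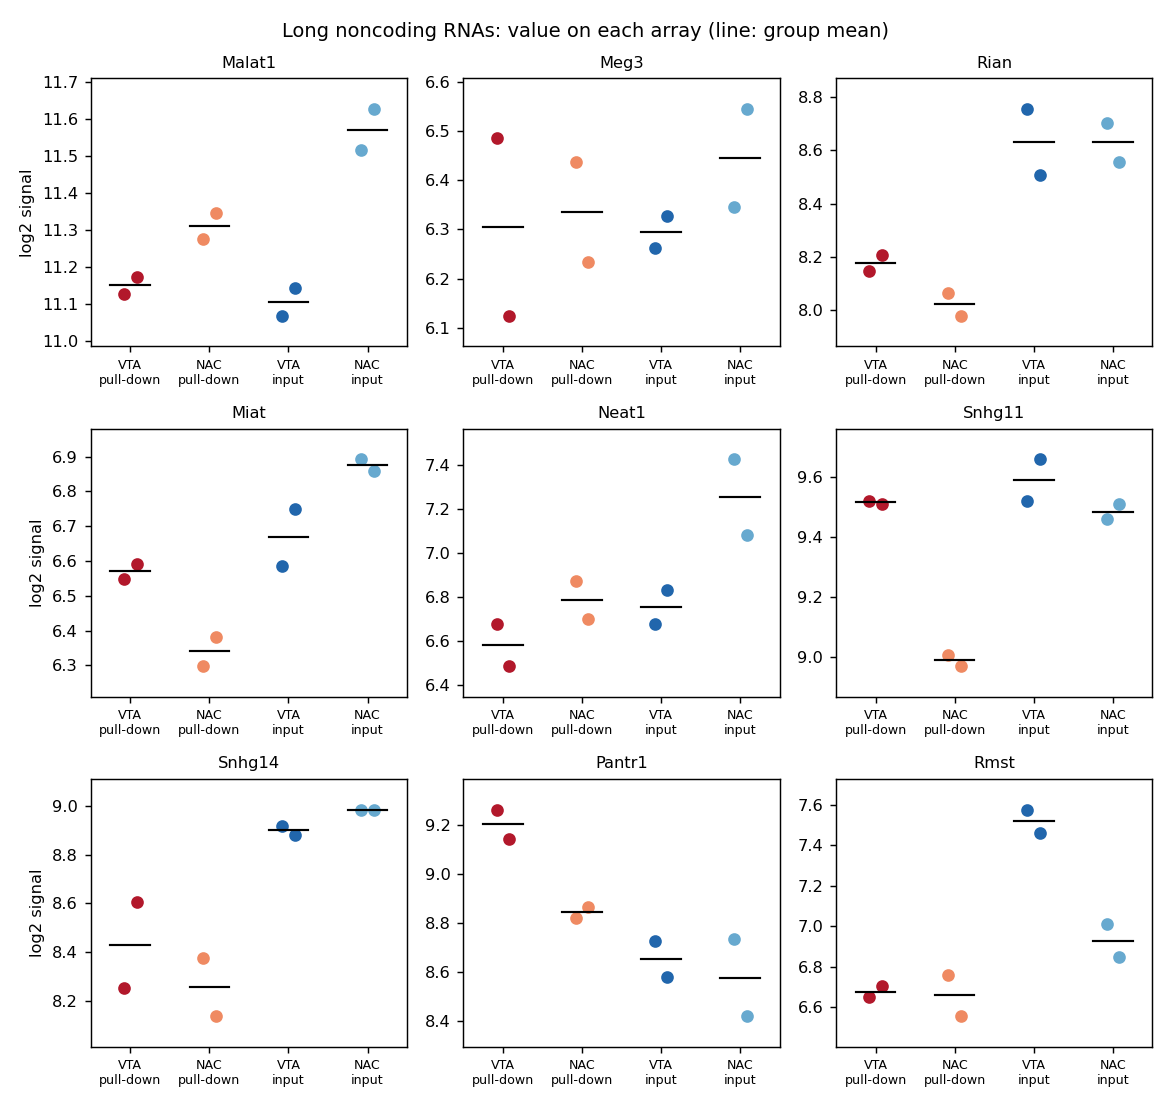
Log2 signal (vertical) of the 9 measured long noncoding RNAs on each of the 8 arrays, in VTA pull-downs, NAC pull-downs, VTA inputs and NAC inputs; points are arrays (2 per group), lines are group means, and each panel has its own scale. Rian, Snhg14 and Rmst are lower and Pantr1 is higher in all 4 pull-downs than in all 4 inputs. Of all tested genes 32.7% showed such a separation in one direction or the other. Snhg11 is lowest in NAC pull-downs, and Rmst is highest in VTA inputs.

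Rmst, at chr10:92081746-92165178, was high in the VTA inputs. It had 6.65 and 6.70 in VTA pull-downs and 6.76 and 6.56 in NAC pull-downs, against 7.58 and 7.46 in VTA inputs and 7.01 and 6.85 in NAC inputs. The pull-downs of the targets overlapped (VTA minus NAC 0.02, 95% interval -0.22 to 0.26), while the inputs differed by 0.59 (SE 0.11, n = 2 and 2, limma adjusted p = 0.021), with VTA higher. Only 0.12% of all genes passed as higher in VTA inputs, and 1.5% passed in all. The call between inputs was lost without any 1 of the 4 inputs (0.51 to 0.67, adjusted p = 0.0665 to 0.277). Pull-down minus input was -0.84 for VTA (SE 0.11, adjusted p = 0.0019), a 1.79-fold fall that still passed without any 1 array, and -0.27 for NAC (adjusted p = 0.12). The average was -0.56 (adjusted p = 0.00087). A second Rmst probe set lay under the array medians on all 8 arrays, and averaging it with the first left 0.18 between the inputs (adjusted p = 0.584). Sox2, whose protein binds Rmst, had -0.06 (adjusted p = 0.59).

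Pantr1, at chr1:42648200-42694825, was the only one of the 9 that rose. It had 9.26 and 9.14 in VTA pull-downs and 8.82 and 8.87 in NAC pull-downs, against 8.72 and 8.58 in VTA inputs and 8.73 and 8.42 in NAC inputs. All pull-downs lay above all inputs, with the VTA pull-downs highest. The average rise was 0.41 (SE 0.08, limma adjusted p = 0.0047), and 97.2% of the tested genes had a lower value. It was 0.55 for VTA (adjusted p = 0.0093) and 0.27 for NAC (adjusted p = 0.16). The rise within VTA was lost without the first VTA input (0.63, adjusted p = 0.0554) or the second (0.48, adjusted p = 0.0609). VTA minus NAC in the pull-downs was 0.36 and did not pass (adjusted p = 0.16). Its neighbour Pou3f3 had -0.01 in the averaged comparison (adjusted p = 0.91).

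Rian and Snhg14 passed within both targets, and the other calls were made within 1 target each. In VTA samples 3 fell in the pull-down (Rmst, Snhg14 at -0.47 and Rian at -0.45), 1 rose (Pantr1) and 5 did not pass, against a background of 25.9% of all genes lower, 5.44% higher and 31.3% in either direction. In NAC samples 5 fell (Snhg14 at -0.73, Rian at -0.61, Miat, Snhg11 and Neat1 at -0.47), none rose and 4 did not pass, with 8.01% of all genes lower, 4.34% higher and 12.3% in either direction. Of all genes that passed, 17.4% were higher in VTA and 35.1% in NAC pull-downs with the deposited values, and 61.3% and 58.5% with centring over the tested genes. The median of the 9 was -0.10 in VTA and -0.47 in NAC samples, beside -0.15 and -0.06 over all genes. The difference of enrichment, VTA minus NAC, was tested for each of the 9 and none passed in limma, while 0.0683% of all genes did (0.00854% higher and 0.0598% lower). At an unadjusted p under 0.05 it was 4 of the 9, beside 1409 of the 11712 genes, with Rmst at -0.57 (SE 0.15, adjusted p = 0.27) and Snhg11 at 0.42 (SE 0.13, adjusted p = 0.28). So the targets were not shown to differ in enrichment for any of them.

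Most of these calls within targets were lost with 1 array left out. All 5 NAC calls were lost without the second NAC pull-down, the first NAC input or the second NAC input, when 0 of the 9 passed; the number of all genes that passed was 149 without the first NAC input, against 1446 with all arrays. In VTA samples Rian was lost without the first VTA pull-down (-0.42, adjusted p = 0.0607) or the first VTA input (-0.33, adjusted p = 0.122), and Snhg14 without the first VTA pull-down (-0.29, adjusted p = 0.132), the first VTA input (-0.45, adjusted p = 0.125) or the second (-0.49, adjusted p = 0.0788). With arrays centred over the tested genes Rian (-0.26) and Snhg14 (-0.27) did not pass in VTA samples (limma adjusted p = 0.0858 for each). The NAC call of Neat1 (adjusted p = 0.047) was lost with the same centring (-0.39, adjusted p = 0.0757), after quantile normalization (-0.42, adjusted p = 0.0584), with the first NAC pull-down left out (-0.55, adjusted p = 0.0591) and without either VTA input (adjusted p = 0.0731).

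**Figure D4:**
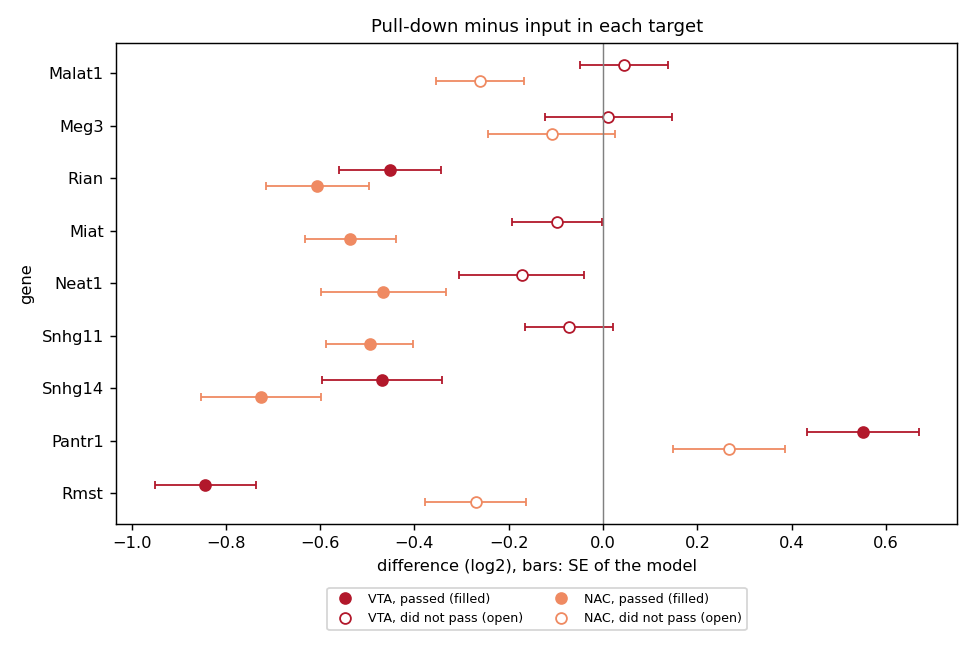
Pull-down minus input on the log2 scale (horizontal) for each long noncoding RNA, in VTA samples and in NAC samples (2 against 2 arrays each); bars are the standard error of the model, filled points passed and open points did not. Rian and Snhg14 are lower in both targets, Rmst and Pantr1 passed in VTA samples, and Miat, Neat1 and Snhg11 passed in NAC samples.

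Between the targets, the pull-down and the input comparisons share no arrays. In the pull-downs Snhg11 alone passed, and in the inputs Malat1 (lower with VTA) and Rmst (higher with VTA) did. When the same probe sets were tested among all 16892 probe sets, Snhg11 still passed (limma adjusted p = 0.037). Malat1 (adjusted p = 0.076) and Rmst (adjusted p = 0.065) then did not. The median VTA minus NAC of the 9 was 0.15 in pull-downs and -0.08 in inputs, beside -0.04 and 0.06 over all genes. Between pull-downs 17% of all genes that passed were higher in VTA with the deposited values, and 32.9% with centring over the tested genes.

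**Figure D5:**
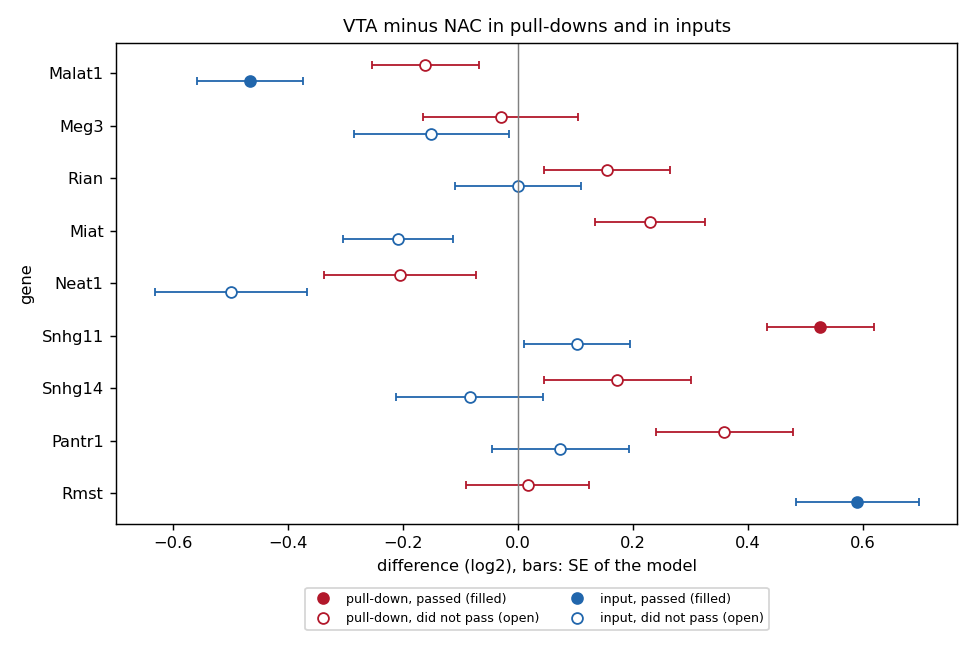
VTA minus NAC on the log2 scale (horizontal) for each long noncoding RNA, in pull-downs and in inputs (2 against 2 arrays each); bars are the standard error of the model, filled points passed and open points did not. Snhg11 passed in the pull-downs at 0.53, and Malat1 at -0.47 and Rmst at 0.59 passed in the inputs.

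Of 44 other noncoding RNAs listed, 13 were tested, Rpph1 and Rn7sk among them. In the averaged pull-downs 7 of the 13 fell, none rose and 6 did not pass, beside 32% of all genes lower. Their median was -0.21, beside -0.11 over all genes. The 6 that did not pass lay between -0.19 (Tug1) and 0.42 (Crnde). Ftx, an RNA of the X inactivation centre, was at -0.56, Lncpint, a target of p53, at -0.53, Dlx6os1, an RNA of interneurons that lies opposite Dlx6, at -0.39, and Firre, which organises nuclear chromatin, at -0.35. With centring over the tested genes 3 of the 13 were lower and 1 higher. Rpph1, the RNA of ribonuclease P, was the only one of the 13 that passed between pull-downs, VTA minus NAC 0.67 (SE 0.13, limma adjusted p = 0.021).

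The genes whose pattern was most like each RNA were found as the 2 tested genes with the smallest root mean square difference over the 8 arrays, each gene centred on its own mean. They were Ctsd and Tspo for Malat1, with differences of 0.06 and 0.06 on the log2 scale, Mark2 and Gm38396 for Meg3 (0.06 and 0.07), Arhgap29 and Pde8a for Rian (0.05 and 0.06), and Pcca and Efnb3 for Miat (0.06 and 0.07). For Neat1 they were Ptpn6 and Aif1 (0.09 and 0.10), for Snhg11 Unc5b and Tmem255b (0.07 and 0.07), for Snhg14 Acot6 and Tmem63a (0.07 and 0.07), for Pantr1 Tcap and Apoa2 (0.08 and 0.10), and for Rmst Pnma3 and Gm3515 (0.08 and 0.08). The RNAs themselves varied over the arrays with SDs of 0.14 (Meg3) to 0.38 (Rmst). Aif1 is a microglial marker gene.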

How the data were processed

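RNA from mouse mPFC was measured on 8 Affymetrix arrays, 2 in each of 4 groups. The authors deposited log2 values of each probe set on each array, made with Transcriptome Analysis Console, per the submitters' processing notes. Neither its version nor how it corrected background and normalized is given in the sources used here, and the values were taken unchanged.

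Names came from the platform annotation, which gave 1 symbol to 23521 of 41345 probe sets, several to 1814 and none to 16010, and 23328 of the 23521 were found by Entrez identifier in RefSeq (GRCm38.p6). Each gene was represented by its brightest probe set and entered the test if it exceeded the median of the named genes on 2 or more of the 8 arrays. limma 3.58.1 in R 4.3.3 was fitted to all 8 arrays with 4 group means (4 residual degrees of freedom, 6.07 added by moderation), two-sided, with Benjamini-Hochberg adjustment over 11712 genes and a threshold of 0.05. Pull-down minus input was tested averaged over targets, in VTA and in NAC, VTA minus NAC in pull-downs and in inputs, and last the difference of enrichment, 6 comparisons in all. The fit was tested on simulated data.

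Named were all members, the 2 genes most like each, up to 4 genes of each context list with the largest differences that passed, and neighbours or partners; a few others were named after their values were seen. The members and lists were chosen with earlier results of these data known. Alternatives were other scalings, no filter, averaged probe sets, an intensity trend, replicate blocks and leaving out each array. Promoter and microRNA sequences are RefSeq's (GRCm38.p6), and 7 of the 10 RNAs had a promoter window.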

Additional observations from a re-analysis of the deposited data

How the results depend on the processing

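Of the values of single RNAs under alternatives that kept all arrays, 373 kept direction and side of the threshold, 24 lost and 2 gained a call, and 15, none of them called, changed sign; with 1 array left out these numbers were 376, 42, 0 and 14. With each array centred over all probe sets, 1 of the 9 RNAs, not 2, passed between inputs, and pull-down minus input in VTA turned to -0.032 for Malat1 and -0.065 for Meg3. With centring over the tested genes, chosen after seeing the data, 4 RNAs passed in the averaged comparison, against 7, and 2 in VTA, against 4. The averaged difference was then 0.027 for Malat1 and 0.086 for Meg3, that in VTA 0.10 for Miat, 0.023 for Neat1 and 0.12 for Snhg11, and VTA minus NAC was 0.023 for Meg3 in pull-downs and -0.066 for Rian in inputs. Quantile normalization left 2 genes, against 8, in the difference of enrichment, and turned Snhg11 in VTA to 0.0028, Meg3 between pull-downs to 0.00067 and Rian between inputs to -0.028. With no filter, 22180 genes were tested and fewer passed: 1907 genes and 2 RNAs in VTA, 105 and 0 in NAC, against 1446 and 5, 113 and 0 between pull-downs, against 289 and 1, 0 RNAs between inputs, and 1 gene in the difference of enrichment. Averaged probe sets left 0 RNAs between inputs and turned Malat1 to 0.28 in the averaged comparison, Snhg11 to 0.13 in VTA and Rmst to -0.044 between pull-downs. An intensity trend gave 532 genes between pull-downs and 30 in the difference of enrichment.

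The titles give the samples the numbers 1 and 2. Deviations from the group means of same-numbered samples correlated at 0.30 for NAC pull-down and input, 0.22 for both inputs, 0.18 for NAC pull-down and VTA input, -0.02 for VTA pull-down and input, -0.07 for VTA pull-down and NAC input and -0.13 for both pull-downs. The sign was mixed and no label ties the numbers to animals or batches, so a pairing was not shown. With a replicate block, by number or by target and number, 1 gene passed in the difference of enrichment, against 8. No call among the RNAs changed in the comparisons that each block could test. The block by target and number cannot test VTA minus NAC, so the calls between pull-downs and between inputs were not tested under it.

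Without 1 array, the genes that passed were 3068 (without the first VTA input) to 5065 in the averaged comparison, 415 (the same array) to 3713 in VTA, 149 to 1848 in NAC, 151 to 335 between pull-downs, 100 to 206 between inputs and 1 to 8 in the difference of enrichment. The RNAs that passed were 6 to 7 averaged, 1 to 4 in VTA, 0 to 5 in NAC, 0 to 1 between pull-downs and 0 to 2 between inputs. Meg3 ran from -0.14 to 0.041 averaged, -0.17 to 0.19 in VTA, -0.21 to 0.15 between pull-downs and -0.060 to 0.30 in the difference of enrichment. Between pull-downs Snhg14 ran from -0.0023 to 0.35 and Rmst from -0.084 to 0.12, and between inputs Rian from -0.12 to 0.12 and Pantr1 from -0.082 to 0.23. The causes were not tested.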

Other observations

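In the averaged comparison few genes of paraspeckle proteins passed. Of 15 tested paraspeckle protein genes, whose products assemble on Neat1, 1 fell, Fam98a at -0.30 (limma adjusted p = 0.024), and none rose, beside 41.5% of all genes passing in either direction. With centring over the tested genes 3 were higher and none lower. Of 23 nuclear speckle and splicing factor genes 3 rose and 5 fell, among them the splicing factor gene U2af1 at 0.54, the splicing kinase gene Clk1 at -0.41 and the splicing factor gene Srsf1 at -0.34, and with the same centring 4 were higher and 1 lower. Of 7 neighbour or partner genes of the RNAs 3 fell, among them Ppp1r16b, a neighbour of Snhg11 that codes for a phosphatase subunit, at -0.48 and Frmd8, a neighbour of the Malat1 and Neat1 genes, at -0.21. Crebbp had -0.18 and did not pass (limma adjusted p = 0.067).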
